A study of Mus musculus with 12 samples.

Results

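Peroxisomes carry out the part of lipid oxidation that mitochondria do not, and their genes were examined here in subcutaneous white adipose tissue (scWAT) of mice kept warm or cold. The 35 genes described were listed by their function, with no measured value in the rule, though earlier results of these data were known when the list was made: 13 that build the organelle (biogenesis) and 21 of lipid metabolism that were testable, plus the acyl-CoA thioesterase Acot3. They were looked up by symbol among the 55401 genes of the deposited count tables, and all 35 were found. RNA-seq libraries came from scWAT of female mice, 16 weeks old at the start, of 2 genotypes and at 2 temperatures, with 3 libraries in each of the 4 groups. Wild-type mice were Jmjd1a +/+, and Jmjd1a HY/HY mice carried on both alleles a point mutation that abolishes the demethylase activity of JMJD1A, an enzyme that removes methyl groups from lysine 9 of histone H3. The allele was made by CRISPR-Cas9 in C57BL/6J eggs, was present in every tissue, and came from a single founder line. All animals were caged singly and acclimated to thermoneutrality (30°C), then kept for 1 week at 30°C or exposed to cold (8°C). Because the mutation is a point change within the protein, gene counts cannot check the genotype labels.

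Peroxisomes form by the action of peroxins, the proteins of the Pex genes. PEX3, PEX16 and PEX19 place membrane proteins, PEX5 and PEX7 carry matrix enzymes to the docking proteins PEX13 and PEX14, PEX2 and PEX10 ubiquitinate the receptor, PEX6 with its membrane anchor PEX26 pulls it back out, and PEX11 proteins elongate the membrane. Inside, very long-chain, branched and dicarboxylic acids are activated, shortened by β-oxidation or α-oxidation and passed on to mitochondria as carnitine esters, and the first steps of ether lipid synthesis take place. In brown fat, peroxisomes are known to become more numerous in the cold, and nuclear receptors of the PPAR family are known to drive many of these genes.

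Sense-strand counts ranged from 13592629 to 26352081 per library, and every 8°C library held fewer than every 30°C library. Levels are CPM, the counts scaled to a common library size, with library totals corrected by the trimmed mean of M-values (TMM). The tissue label held, as all 10 white adipocyte markers were present in every library. The 8 beige adipocyte markers, Ucp1 and Cidea among them, summed to 75.1 to 203 CPM in wild type and 64.7 to 249 CPM in HY/HY at 30°C, to 8445 to 9349 CPM in wild type at 8°C and to 543 to 1698 CPM in HY/HY at 8°C. Markers of other tissues also moved. Summed skeletal muscle markers stood at 1767 CPM in wild type 30°C replicate 2 and at 7.88 to 29.1 CPM in the other libraries, and the summed mammary epithelium markers stood at 3804 to 5974 CPM in wild type at 30°C, against 958 to 2489, 2252 to 2627 and 1361 to 2143 CPM in HY/HY at 30°C, wild type at 8°C and HY/HY at 8°C. Summed white adipocyte markers were highest in replicate 3 of HY/HY at 30°C (54150 CPM) and at 8°C (54712 CPM), and the lowest library held 23857 CPM. The part of these marker differences in the results was not tested, and in bulk tissue a smaller number of cells of a type cannot be told apart from less RNA per cell.

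To be called higher or lower, a gene needed an adjusted p under 0.05 in the quasi-likelihood test of edgeR, together with a fold change beyond 1.5 upward or 0.67 downward. 34 of the 35 genes had enough counts to be tested. Cold exposure of wild-type mice raised 16 of these 34 and lowered 0, while 10.3% of all genes tested were called higher and 6.93% lower. The median log2 fold change of the 34 genes was 0.58, against -0.07 over all genes. At an unadjusted p under 0.05, 24 genes had higher and 1 had lower values. The share of all genes at that unadjusted limit was not counted, here or in the other comparisons, so these counts have no background. DESeq2 called 16 higher and 0 lower, beside 1915 higher and 1210 lower calls over all genes. In 25 genes all 3 cold libraries lay above all 3 warm ones and in 1 gene below, where the background was 20.7% higher and 22.7% lower. When libraries were scaled by their totals alone, the median of all genes moved to -0.41 and 10 of the 34 were called higher and 2 lower (Pex26 and Agps), while over all genes the split of 1707 higher and 1147 lower calls became 1057 and 4144.

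In Jmjd1a HY/HY mice the same cold exposure raised 2 of the 34 genes, Ehhadh and Acaa1b, and lowered 0, against 0.181% of all genes called higher and 0.0665% lower. The median log2 fold change was 0.36, against -0.01 over all genes, and 32 of the 34 values were above 0. At an unadjusted p under 0.05, 13 genes had higher values and 0 lower, and DESeq2 called 9 higher and 0 lower, with 216 higher and 94 lower calls over all genes in place of 30 and 11. The libraries did not overlap in 14 genes, all higher in the cold, with a background of 9.33% higher and 9.00% lower. This count was sensitive to HY/HY 30°C replicate 3: without it 13 genes were called, among them Pex3, Pex5, Pex13, Pex19, Abcd3, Hsd17b4, Scp2 and Gnpat, and the calls over all 16926 genes tested in that fit rose to 461 higher and 203 lower. With a replicate block 8 genes were called, beside 128 higher and 32 lower calls over all genes, and with the block in the HY/HY libraries alone only Ehhadh was, beside 10 and 1. The median of the 34 genes was 0.24 without HY/HY 30°C replicate 1.

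**Figure D1:**
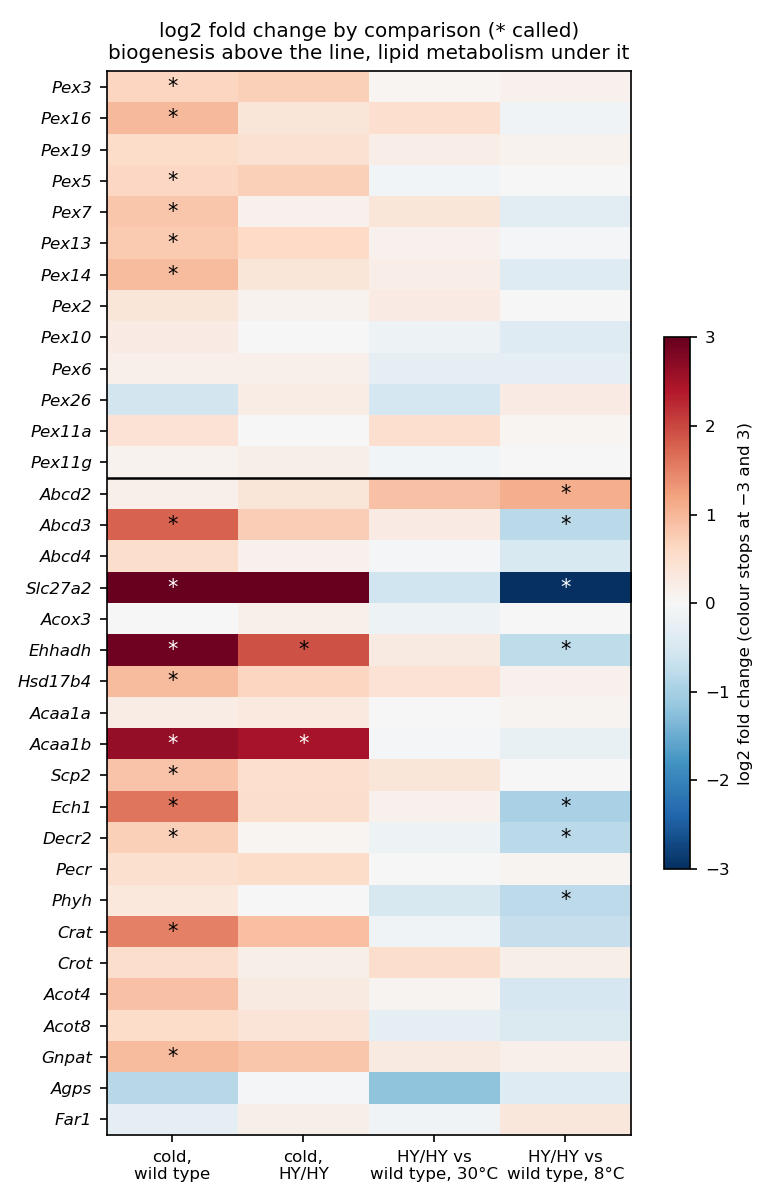
Log2 fold changes (colour) of the 34 tested genes, in rows by role, in 4 comparisons: 8°C against 30°C in each genotype, and HY/HY against wild type at each temperature. Asterisks mark called genes: 16 in the cold in wild type, 2 in the cold in HY/HY, 0 between genotypes at 30°C and 7 at 8°C.

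Between genotypes at 8°C, 1 of the 34 genes was called higher in HY/HY, the transporter gene Abcd2, and 6 were called lower: Slc27a2, Ech1, Decr2, Abcd3, Phyh and Ehhadh. Over all genes 1.51% were called higher and 4.42% lower. All 7 belong to lipid metabolism. Among the 13 biogenesis genes 0 were called in either direction, with 1 at an unadjusted p under 0.05 higher and 2 lower. DESeq2 called 0 of them, beside 406 higher and 962 lower calls over all genes. The 34 genes had a median log2 difference of -0.08, against 0.01 over all genes, and 20 of the 34 values were below 0. This median was -0.01 without HY/HY 8°C replicate 2, -0.04 without wild type 8°C replicate 2, -0.16 without wild type 8°C replicate 1 and -0.18 without HY/HY 8°C replicate 3, and with library totals alone it was 0.05, against 0.15 over all genes. The HY/HY libraries lay above all wild-type ones in 3 genes and below them in 12, with a background of 16.4% and 19.0%. Scaling by library totals alone left the 7 calls in place, although over all genes 249 higher and 731 lower calls became 535 and 480. Leaving out single libraries cut the count: 1 gene was called without wild type 8°C replicate 3, HY/HY 8°C replicate 1 or HY/HY 8°C replicate 3, 3 without wild type 8°C replicate 2, and 4 without wild type 8°C replicate 1 or HY/HY 8°C replicate 2. The calls over all genes fell too, from 249 higher and 731 lower to 79 and 347, 68 and 348, and 43 and 301 in the fits with 1 call. They became 44 and 468 in the fit with 3 calls, and 106 and 499, and 217 and 566, in the fits with 4. Decr2 was called in each of these fits.

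Between genotypes at 30°C 0 of the 34 genes were called, against 0.562% of all genes higher and 0.441% lower. At an unadjusted p under 0.05, 6 genes had higher and 4 lower values in HY/HY, again without a share over all genes. DESeq2 called Abcd2 higher and Agps lower, beside 357 higher and 312 lower calls over all genes. The libraries did not overlap in 3 genes with higher and 2 with lower values in HY/HY, with a background of 7.66% and 10.6%. Agps was called lower without wild type 30°C replicate 3, and Pex11a was called higher without HY/HY 30°C replicate 1. The interaction term, the response to cold in HY/HY minus that in wild type, passed an adjusted p of 0.05 in 2 genes, higher in Pex26 and lower in Abcd3, where 0.169% of all genes were higher and 2.07% lower. Scaling by library totals alone called the same 2 genes, while over all genes 28 higher and 342 lower calls became 43 and 186.

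Fatty acids enter the peroxisome as CoA esters, and the gene of very long-chain acyl-CoA synthetase, Slc27a2 (also a fatty acid transporter), had the largest cold response of the 34 genes. Its level was 1.81, 0.216 and 1.17 CPM in wild type at 30°C, 1.59, 0.0689 and 0.364 CPM in HY/HY at 30°C, 58.3, 67.5 and 97.3 CPM in wild type at 8°C, and 7.83, 14.1 and 3.41 CPM in HY/HY at 8°C. The gene was near silent in every warm library (2 to 41 counts), every cold library lay above every warm one, and the HY/HY cold libraries lay below all 3 wild-type cold ones. The log2 fold change in the cold was 6.17 ± 0.78 (SE, adjusted p = 0.00024) in wild type and 3.64 ± 0.78 (adjusted p = 0.0877) in HY/HY, and HY/HY was lower by 8.72-fold at 8°C (adjusted p = 0.0141). The interaction was -2.53 with a 95% interval from -4.96 to -0.09 (adjusted p = 0.314). The difference at 8°C had an adjusted p of 0.0624, 0.0708 and 0.0654 without wild type 8°C replicate 3, HY/HY 8°C replicate 1 and HY/HY 8°C replicate 3. Among the HY/HY cold libraries, replicate 3 had both the least Slc27a2 and the lowest sum of beige markers.

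Abcd3 encodes PMP70, the abundant half-transporter of the peroxisomal membrane that imports long- and branched-chain acyl-CoA. It was measured at 101, 97.4 and 106 CPM in wild type and 88.0, 126 and 148 CPM in HY/HY at 30°C, and at 342, 339 and 360 CPM in wild type and 185, 207 and 207 CPM in HY/HY at 8°C. The cold libraries lay above the warm ones in both genotypes, and at 8°C the 2 genotypes were well apart with little spread inside each. The rise in the cold was 3.42-fold in wild type (log2 1.77 ± 0.16, adjusted p = 4.23e-05), the value in HY/HY was 1.65-fold (0.73 ± 0.16, adjusted p = 0.0934), and the interaction of -1.05 ± 0.22 passed the test (adjusted p = 0.0364). At 8°C HY/HY was 1.74-fold lower (adjusted p = 0.0125). That difference had an adjusted p of 0.0576, 0.0668 and 0.0550 without wild type 8°C replicate 3, HY/HY 8°C replicate 1 and HY/HY 8°C replicate 3. The interaction lost its call in 10 of the 12 fits that left out 1 library, with an adjusted p between 0.0511 and 0.113, and kept it without wild type 30°C replicate 3 or HY/HY 30°C replicate 1.

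Its relative Abcd2, a transporter of very long-chain and polyunsaturated acyl-CoA that adipose tissue expresses at a high level, went the other way between genotypes. The libraries held 159, 182 and 161 CPM in wild type and 262, 212 and 453 CPM in HY/HY at 30°C, and 168, 194 and 196 CPM in wild type and 350, 317 and 525 CPM in HY/HY at 8°C. The HY/HY libraries lay above the wild-type ones at both temperatures, with replicate 3 the highest at each. HY/HY exceeded wild type by 2.14-fold at 8°C (log2 1.10 ± 0.26, adjusted p = 0.0266), and the value at 30°C was 1.85-fold (adjusted p = 0.107). Cold gave log2 values of 0.15 in wild type (adjusted p = 0.701) and 0.36 in HY/HY (adjusted p = 0.550). At 8°C the adjusted p was 0.0998, 0.0847 and 0.0826 without wild type 8°C replicates 1, 2 and 3, and 0.0626 and 0.119 without HY/HY 8°C replicates 1 and 3. The summed white adipocyte markers were also highest in the replicates 3 of HY/HY. The summed level of all 8 macrophage markers was 212 to 363 CPM in HY/HY against 182 to 190 CPM in wild type at 30°C. At 8°C it was 246 to 328 CPM in HY/HY against 144 to 162 CPM in wild type. The HY/HY library with the highest macrophage sum was replicate 1 at both temperatures, not replicate 3. Neither set of markers was tested as part of the Abcd2 difference. Abcd4, now known mainly as a lysosomal cobalamin transporter, was at 18.9 to 24.8 CPM at 30°C over both genotypes, 28.7 to 31.7 CPM in wild type at 8°C and 21.5 to 23.2 CPM in HY/HY at 8°C, and its difference of -0.45 at 8°C had an adjusted p of 0.0394 but stayed inside the fold limit.

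**Figure D2:**
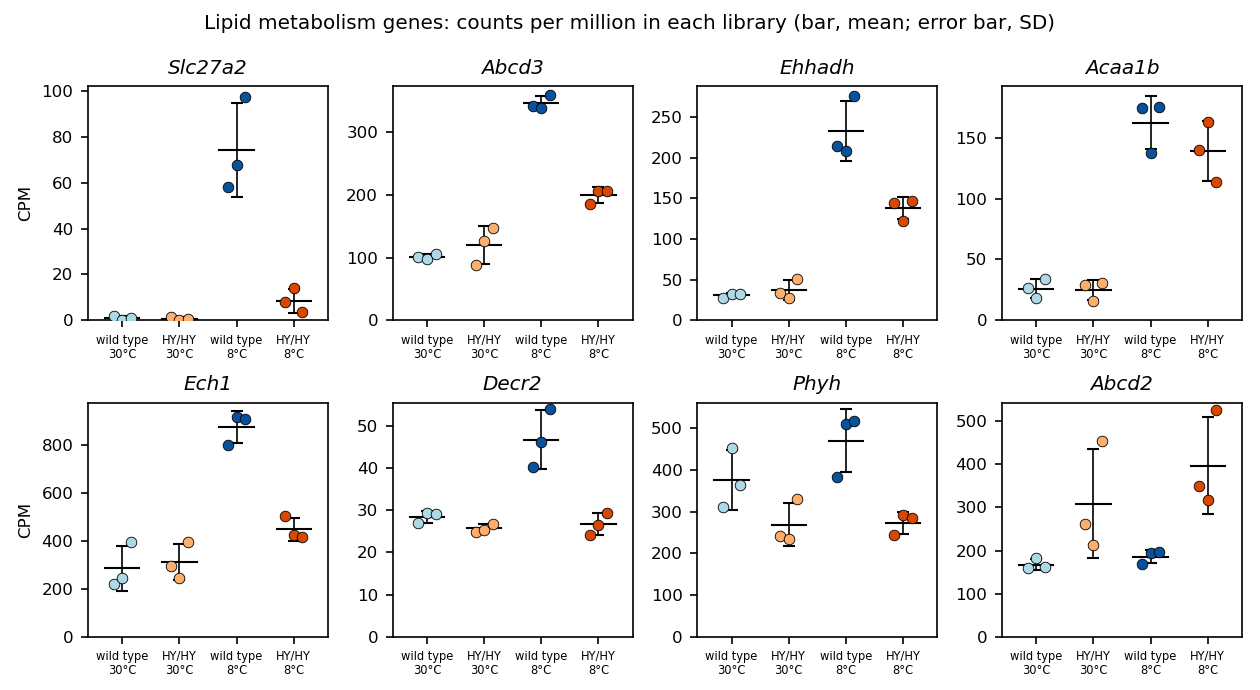
Level (CPM, linear axis from 0) of 8 lipid metabolism genes in each library (points), with the group mean (bar) and SD (error bar), n = 3 per group. At 8°C the HY/HY points lie below all wild-type points for Slc27a2, Abcd3, Ehhadh, Ech1, Decr2 and Phyh, above them for Abcd2, and among them for Acaa1b.

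Of the 6 β-oxidation genes, 4 were called higher in the cold in wild type, 2 of them also in HY/HY, and 1 was called lower in HY/HY than in wild type at 8°C. The shares over all genes were 10.3%, 0.181% and 4.42% in the same order. Ehhadh encodes the bifunctional enzyme that hydrates and dehydrogenates dicarboxylic and medium-chain substrates. Its level was 27.6, 32.3 and 32.2 CPM in wild type and 32.9, 27.5 and 50.6 CPM in HY/HY at 30°C, and 215, 209 and 275 CPM in wild type and 144, 122 and 147 CPM in HY/HY at 8°C. The warm groups overlapped each other, while the cold groups lay above them and apart from one another. Ehhadh rose 7.59-fold in wild type (log2 2.92 ± 0.21, adjusted p = 1.68e-05) and 3.74-fold in HY/HY (1.90 ± 0.21, adjusted p = 0.0042), and HY/HY was 1.69-fold lower at 8°C (adjusted p = 0.0404). This genotype difference was the closest to the limit of the 7 called at 8°C: it was lost without wild type 30°C replicate 1 or 2 (adjusted p = 0.0548 and 0.0512), without wild type 8°C replicates 1, 2 and 3 (0.0796, 0.0779 and 0.162) and without HY/HY 8°C replicates 1, 2 and 3 (0.109, 0.127 and 0.107). The interaction was -1.02 (95% interval from -1.64 to -0.41, adjusted p = 0.0941).

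The 3-ketoacyl-CoA thiolases, which make the last cut of the β-oxidation cycle, are encoded in mouse by the closely related genes Acaa1a and Acaa1b. Acaa1b was at 26.2, 17.9 and 33.9 CPM in wild type and 28.6, 15.8 and 31 CPM in HY/HY at 30°C, and at 175, 137 and 175 CPM in wild type and 140, 163 and 114 CPM in HY/HY at 8°C. It rose in both genotypes, by 6.26-fold in wild type (log2 2.65 ± 0.28, adjusted p = 8.1e-05) and 5.55-fold in HY/HY (2.47 ± 0.28, adjusted p = 0.0042). The cold libraries of the 2 genotypes overlapped, and the difference of -0.22 had a 95% interval from -0.79 to 0.35 (adjusted p = 0.671), so a reduction as large as that of Ehhadh lay inside it. Acaa1a was at 139, 159 and 189 CPM in wild type and 158, 141 and 190 CPM in HY/HY at 30°C, and at 194, 186 and 187 CPM in wild type and 202, 181 and 219 CPM in HY/HY at 8°C. Its cold values were 0.22 in wild type (adjusted p = 0.285) and 0.30 in HY/HY (adjusted p = 0.361), so the pair that shares an enzymatic step had unequal values in the cold. Reads that map to more than 1 place were not counted, and reads shared by these near-identical genes may be missing from both.

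Hsd17b4, the bifunctional enzyme for branched and very long-chain acids, was at 181, 179 and 215 CPM in wild type and 214, 222 and 341 CPM in HY/HY at 30°C, and at 335, 372 and 406 CPM in wild type and 398, 358 and 462 CPM in HY/HY at 8°C. It rose in wild type (log2 0.95 ± 0.19, adjusted p = 0.00403), and its value in HY/HY was 0.65 (adjusted p = 0.161), with HY/HY and wild type overlapping at 8°C. Scp2, whose long product is the thiolase for branched chains and whose short product is a lipid carrier, had the highest level per length of transcript of the 35 genes over all libraries, 216 CPM per kilobase. Its rise in wild type (0.86 ± 0.25, adjusted p = 0.0261) was lost without wild type 30°C replicate 1 or 2 (adjusted p = 0.0936 and 0.0909) and without wild type 8°C replicate 2 or 3 (0.0762 and 0.0739). Acox3, an oxidase for branched chains, was at 38.3 to 65.1 CPM across the 12 libraries and was not called in any comparison, and its 95% interval for cold in wild type ran from -0.36 to 0.36 on the log2 scale.

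Promoter sequences were taken from a RefSeq table (GRCm38.p6), in which 29 of the 35 genes were matched, all but Pex19, Pex2, Abcd2, Abcd4, Hsd17b4 and Crat. The 250 bases before the first listed start are shown for the 3 genes with the largest cold changes, and for Scp2. Each copy of the nuclear receptor half-site AGGTCA on either strand is in capitals. Slc27a2 lies at chr2:126552774-126553023 on the plus strand, Ehhadh at chr16:21787835-21788084, Acaa1b at chr9:119157094-119157343 and Scp2 at chr4:108118548-108118797 on the minus strand, and each is written 5′ to 3′ along its gene.
Slc27a2: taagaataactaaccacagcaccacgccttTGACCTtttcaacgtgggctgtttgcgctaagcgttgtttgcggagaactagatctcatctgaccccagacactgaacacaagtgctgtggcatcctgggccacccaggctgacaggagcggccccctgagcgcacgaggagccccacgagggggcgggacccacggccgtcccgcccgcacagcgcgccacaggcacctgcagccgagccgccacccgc
Ehhadh: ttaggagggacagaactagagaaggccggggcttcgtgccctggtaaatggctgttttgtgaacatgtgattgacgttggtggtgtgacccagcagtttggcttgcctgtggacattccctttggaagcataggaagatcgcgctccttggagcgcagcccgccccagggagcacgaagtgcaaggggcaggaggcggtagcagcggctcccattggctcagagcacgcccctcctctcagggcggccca
Acaa1b: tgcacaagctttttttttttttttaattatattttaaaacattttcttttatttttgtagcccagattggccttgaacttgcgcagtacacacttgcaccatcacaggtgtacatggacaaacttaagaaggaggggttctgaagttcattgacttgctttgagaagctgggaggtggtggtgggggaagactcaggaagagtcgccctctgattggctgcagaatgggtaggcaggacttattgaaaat
Scp2: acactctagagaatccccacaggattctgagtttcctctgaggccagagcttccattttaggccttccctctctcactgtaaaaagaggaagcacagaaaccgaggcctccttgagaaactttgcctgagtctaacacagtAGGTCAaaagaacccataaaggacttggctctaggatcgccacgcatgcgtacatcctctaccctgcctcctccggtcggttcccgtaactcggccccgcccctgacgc
Slc27a2 has 1 half-site (on the opposite strand, as TGACCT) that begins 220 bases before the start, Scp2 has 1 that begins 109 bases before it, and Ehhadh and Acaa1b have 0. Over the 29 genes 4 held a half-site (13.8%; the others were Acot4 and Pex11g), and 13.8% of all 27025 genes in the table did. A direct repeat of 2 half-sites with 1 base between them was in 0 of the 29 and in 10 genes of the table (0.037%), so these letters did not set the 29 genes apart. Of the 4 genes with a half-site, the start used for Scp2 and for Acot4 lies inside the gene. Scp2 spans chr4:108043830-108144971, and Acot4 begins at chr12:84037254. The windows of these 2 genes are therefore not upstream of the whole gene. Each window covers 250 bases only, and the absence of the exact letters says nothing about binding.

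Of the 3 auxiliary enzymes that prepare unsaturated acids for β-oxidation, 2 were called higher in the cold in wild type and the same 2 were called lower in HY/HY at 8°C. The shares over all genes were 10.3% and 4.42%. Ech1, the dienoyl-CoA isomerase found in peroxisomes and mitochondria, was at 221, 245 and 395 CPM in wild type and 295, 245 and 394 CPM in HY/HY at 30°C, and at 800, 918 and 909 CPM in wild type and 505, 425 and 416 CPM in HY/HY at 8°C. The cold wild-type libraries lay above all the others. Ech1 rose 3.05-fold in wild type (log2 1.61 ± 0.23, adjusted p = 0.000608), its value in HY/HY was 1.44-fold (adjusted p = 0.319), and HY/HY was 1.95-fold lower at 8°C (adjusted p = 0.0264). Without any 1 of the 6 cold libraries the adjusted p of that difference lay between 0.0558 (without wild type 8°C replicate 1) and 0.111 (without HY/HY 8°C replicate 3). It was 0.0878 and 0.0896 without wild type 8°C replicates 2 and 3, and 0.0667 and 0.0814 without HY/HY 8°C replicates 1 and 2.

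Decr2, the peroxisomal dienoyl-CoA reductase, was the steadiest of these genes across the fits. It was at 26.9, 29.3 and 29.0 CPM in wild type and 25, 25.4 and 26.8 CPM in HY/HY at 30°C, and at 40.2, 46.1 and 54.1 CPM in wild type and 24.2, 26.4 and 29.4 CPM in HY/HY at 8°C. The range of the cold HY/HY libraries overlapped those of both warm groups, and the cold wild-type libraries lay above all the others. The rise in wild type was 1.65-fold (log2 0.72 ± 0.12, adjusted p = 0.00137), the cold value in HY/HY was 0.05 with a 95% interval from -0.21 to 0.31, and HY/HY was 1.76-fold lower at 8°C (adjusted p = 0.00286). This genotype difference was kept in all 22 alternatives run, including the 12 that left out 1 library, where the highest adjusted p was 0.0225. The interaction was -0.67 ± 0.17 (adjusted p = 0.0643). The rise in wild type kept its direction but went inside the fold limit when libraries were scaled by totals alone (log2 0.38, adjusted p = 0.0291). Pecr, the trans-enoyl-CoA reductase, was at 11.6 to 25.7 CPM and was not called in any comparison.

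Phyh starts α-oxidation, the route for phytanic acid, whose methyl branch blocks β-oxidation. It was at 310, 453 and 364 CPM in wild type and 242, 235 and 329 CPM in HY/HY at 30°C, and at 382, 509 and 517 CPM in wild type and 243, 292 and 284 CPM in HY/HY at 8°C. Its libraries overlapped between temperatures in both genotypes, and the cold values were 0.32 in wild type (adjusted p = 0.229) and 0.02 in HY/HY (adjusted p = 0.975). HY/HY was 1.72-fold lower at 8°C (adjusted p = 0.0281), and the value at 30°C was -0.48 (adjusted p = 0.201). The difference at 8°C had an adjusted p of 0.108 and 0.112 without wild type 8°C replicates 2 and 3, and of 0.119, 0.0609 and 0.0895 without HY/HY 8°C replicates 1, 2 and 3.

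Carnitine acyltransferases move shortened chains out of the organelle. Crat, which acts on acetyl groups in peroxisomes and mitochondria, was at 223, 235 and 394 CPM in wild type and 234, 193 and 364 CPM in HY/HY at 30°C, and at 769, 784 and 860 CPM in wild type and 506, 504 and 476 CPM in HY/HY at 8°C. It rose 2.83-fold in wild type (log2 1.5 ± 0.25, adjusted p = 0.00162). In HY/HY the cold value was 1.88-fold (adjusted p = 0.152), and although the HY/HY cold libraries lay below the wild-type ones, the difference of -0.70 was not called (95% interval from -1.24 to -0.16, adjusted p = 0.115); DESeq2 called it. Crot, the octanoyl counterpart, was at 38.8, 39.1 and 40.5 CPM in wild type and 47.4, 43.7 and 79.2 CPM in HY/HY at 30°C, and at 53.7, 57.0 and 61.1 CPM in wild type and 60.2, 61.9 and 71.4 CPM in HY/HY at 8°C. It was not called in any comparison.

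The thioesterases release free acids from CoA. Acot3 had 0 to 13 counts per library and was not tested. Acot4, its neighbour on chromosome 12 and a close paralog, was at 16.7, 7.94 and 19.0 CPM in wild type and 8.72, 20.4 and 16.9 CPM in HY/HY at 30°C, and at 21.1, 27.2 and 30.9 CPM in wild type and 10.2, 21.9 and 23.7 CPM in HY/HY at 8°C, a spread that gave a log2 value of 0.87 ± 0.39 in the wild-type cold comparison (adjusted p = 0.124). As with the thiolases, shared reads of this pair were not counted. Acot8 was at 24.1 to 24.6 CPM in wild type at 8°C and 17.4 to 18.7 CPM in HY/HY at 8°C, and its difference of -0.44 had an adjusted p of 0.0411 within the fold limit.

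Ether lipids are begun by Gnpat and Agps, with the alcohol supplied by Far1. Gnpat, the acyltransferase, was at 112, 129 and 153 CPM in wild type and 152, 113 and 206 CPM in HY/HY at 30°C, and at 251, 248 and 256 CPM in wild type and 286, 250 and 307 CPM in HY/HY at 8°C. It rose in wild type (1.92-fold, log2 0.94 ± 0.19, adjusted p = 0.00536), the cold value in HY/HY was 1.79-fold (adjusted p = 0.106), and the genotypes overlapped at 8°C. Agps, which makes the ether bond in the next step, did not follow it. Its warm wild-type libraries held 564, 470 and 147 CPM, against 114 to 238 CPM in HY/HY at 30°C, 198 to 255 CPM in wild type at 8°C and 158 to 185 CPM in HY/HY at 8°C. The high libraries, replicates 1 and 2, also held the highest sums of mammary epithelium markers (4532 and 5974 CPM) and lower sums of white adipocyte markers than replicate 3, and the part of either in the level of Agps was not tested. The wild-type cold value of Agps was -0.84 ± 0.39 (adjusted p = 0.135). Far1, an acyl-CoA reductase, was at 48.6, 59.2 and 25.2 CPM in the same 3 warm wild-type libraries and at 33.8 to 50.6 CPM elsewhere.

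Among the 13 biogenesis genes 6 were called higher in the cold in wild type: Pex3 and Pex16 for membrane proteins, both import receptors Pex5 and Pex7, and both docking genes Pex13 and Pex14. Over all genes 10.3% were called higher and 6.93% lower in that comparison. The median log2 fold change of the 13 was 0.54 in wild type and 0.22 in HY/HY, where 0 were called, 3 at an unadjusted p under 0.05 had higher and 0 lower values, and DESeq2 called Pex3 and Pex5. The largest log2 value among them was 0.98, against 6.17 among the lipid metabolism genes. Genes of receptor ubiquitination and recycling and of membrane elongation were not called in either direction.

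For membrane assembly, Pex3 was at 42.3, 41.6 and 58.7 CPM in wild type and 49.9, 41.9 and 57.2 CPM in HY/HY at 30°C, and at 64.4, 84.8 and 75.2 CPM in wild type and 70.2, 77.7 and 96.0 CPM in HY/HY at 8°C. The 2 genotypes overlapped at each temperature and their cold values were near each other, 0.66 ± 0.17 in wild type (adjusted p = 0.0194) and 0.71 ± 0.17 in HY/HY (adjusted p = 0.117). Pex16 was at 89.7, 89.6 and 170 CPM in wild type and 124, 188 and 182 CPM in HY/HY at 30°C, and at 217, 240 and 230 CPM in wild type and 207, 181 and 248 CPM in HY/HY at 8°C. It rose in wild type (log2 0.98 ± 0.25, adjusted p = 0.0149), with a value of 0.36 in HY/HY (adjusted p = 0.522). The wild-type calls were lost for Pex16 without wild type 30°C replicate 1 or 2 (adjusted p = 0.0582 and 0.0624), and for Pex3 without wild type 30°C replicate 1 or 2 (0.0706 and 0.0769) or wild type 8°C replicate 2 or 3 (0.0759 and 0.0573).

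For import, Pex5, the receptor for the common C-terminal signal, was at 77.6 to 105 CPM in wild type and 73.7 to 97.8 CPM in HY/HY at 30°C, and at 129 to 146 CPM in wild type and 133 to 142 CPM in HY/HY at 8°C. Its log2 values were 0.62 in wild type (adjusted p = 0.00809) and 0.73 in HY/HY (adjusted p = 0.0623). Pex7, the receptor for the rarer N-terminal signal, was at 26.4, 31.7 and 29.5 CPM in wild type and 31.1, 36.3 and 45.5 CPM in HY/HY at 30°C, and at 44.5, 54.2 and 56.1 CPM in wild type and 38.3, 39.3 and 45.7 CPM in HY/HY at 8°C. It rose in wild type (log2 0.82 ± 0.15, adjusted p = 0.00248), had a value of 0.13 in HY/HY (adjusted p = 0.727), and its interaction of -0.69 did not pass (adjusted p = 0.123), although it did with the replicate block and without HY/HY 30°C replicate 1. The call of Pex5 in wild type rested on the fold limit: its log2 value was 0.57, 0.53 and 0.57 without wild type 30°C replicate 1, wild type 30°C replicate 2 and wild type 8°C replicate 3.

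At the docking site, Pex14 was at 56.2, 56.3 and 83.4 CPM in wild type and 55.7, 89.9 and 77.5 CPM in HY/HY at 30°C, and at 121, 127 and 131 CPM in wild type and 92.8, 92.5 and 104 CPM in HY/HY at 8°C. It rose in wild type (log2 0.95 ± 0.18, adjusted p = 0.00379), and at 8°C the HY/HY libraries lay below the wild-type ones by a log2 value of -0.39 that did not pass the test (adjusted p = 0.231). Pex13 was at 74.8 to 107 CPM in wild type at 30°C and 125 to 170 CPM at 8°C (log2 0.79, adjusted p = 0.0153), and its call was lost without wild type 30°C replicate 1 or 2 (0.0536 and 0.0646) or wild type 8°C replicate 2 or 3 (0.0522 and 0.0637, all adjusted p). Its HY/HY libraries held 76.9 to 124 CPM at 30°C and 132 to 171 CPM at 8°C, a log2 value of 0.60 (adjusted p = 0.210).

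**Figure D3:**
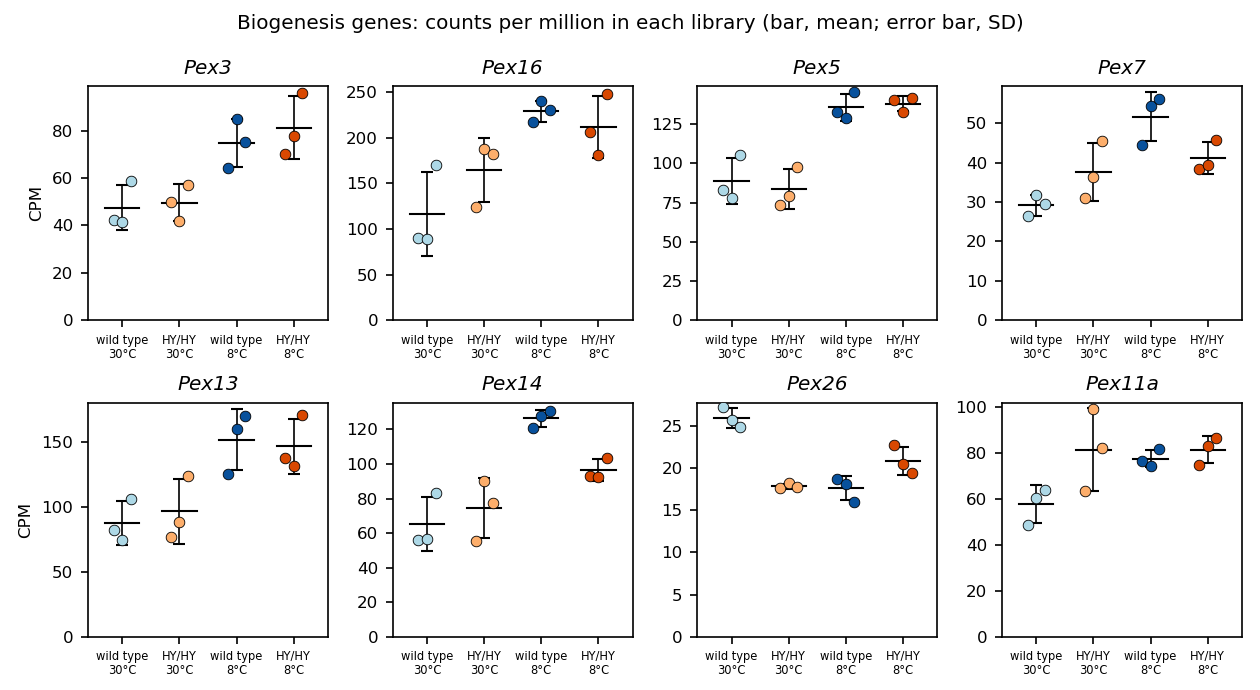
Level (CPM, linear axis from 0) of 8 biogenesis genes in each library (points), with the group mean (bar) and SD (error bar), n = 3 per group. The cold libraries lie above the warm ones of wild type for each gene but Pex26, where they lie below, and at 8°C HY/HY points lie below all wild-type points for Pex14 and above them for Pex26 and overlap them for Pex3, Pex16, Pex5, Pex7, Pex13 and Pex11a.

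Pex26, which anchors PEX6 at the membrane for recycling of the receptor, was the exception to the direction of the group. It was at 27.2, 25.7 and 24.9 CPM in wild type and 17.6, 18.2 and 17.8 CPM in HY/HY at 30°C, and at 18.7, 18.1 and 16 CPM in wild type and 22.7, 20.4 and 19.4 CPM in HY/HY at 8°C. The 3 warm wild-type libraries were the highest of the 12. At 8°C the HY/HY libraries lay above the wild-type ones, by a log2 value of 0.24 that was not called (adjusted p = 0.190). The log2 values were -0.56 ± 0.10 for cold in wild type (adjusted p = 0.00291) and -0.54 ± 0.10 for HY/HY against wild type at 30°C (adjusted p = 0.0358), both inside the fold limit and so not called. Cold in HY/HY gave 0.22 ± 0.10 (adjusted p = 0.342), and the interaction was 0.78 ± 0.15 (adjusted p = 0.0226). Apart from cold in HY/HY and the genotypes at 8°C, these comparisons use the warm wild-type libraries. Those also held the most mammary epithelium markers, and the part of the markers was not tested. The interaction lost its call in 7 of the 12 fits without 1 library, with an adjusted p of 0.0692 and 0.0554 without wild type 30°C replicates 1 and 2, 0.0629 and 0.0718 without wild type 8°C replicates 2 and 3, and 0.0766, 0.0552 and 0.0506 without HY/HY 8°C replicates 1, 2 and 3. Pex6 was at 78.6 to 129 CPM throughout and was not called.

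The remaining biogenesis genes were not called. Pex11a, the inducible elongation factor, was at 48.5, 60.5 and 64.0 CPM in wild type and 63.2, 99.0 and 82.1 CPM in HY/HY at 30°C, and at 76.4, 74.3 and 81.9 CPM in wild type and 74.9, 82.8 and 86.4 CPM in HY/HY at 8°C. The cold value was 0.43 in wild type (adjusted p = 0.0646), and that of its relative Pex11g, at 18.0 to 30.6 CPM over all libraries, was 0.10 (adjusted p = 0.731). Pex19, the chaperone of membrane proteins, was at 163 to 380 CPM and had a wild-type cold value of 0.54 (adjusted p = 0.0973). Pex2 gained 0.36 in wild type (adjusted p = 0.0276) within the fold limit, and Pex10, at 10.5 to 18.1 CPM, gave 0.25 (adjusted p = 0.252).

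The cold responses of the 2 genotypes share no libraries and can be set side by side. Across the 34 genes, which share their libraries and are not replicates, the log2 fold changes in wild type and HY/HY had a Pearson r of 0.92 and a Spearman rho of 0.72, and r was 0.60 without the 5 largest wild-type responses. The value in HY/HY was smaller in 24 genes and larger in 10. Genes at the top of both lists were Slc27a2, Ehhadh and Acaa1b, and the gap was -2.53, -1.02 and -0.17 on the log2 scale.

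**Figure D4:**
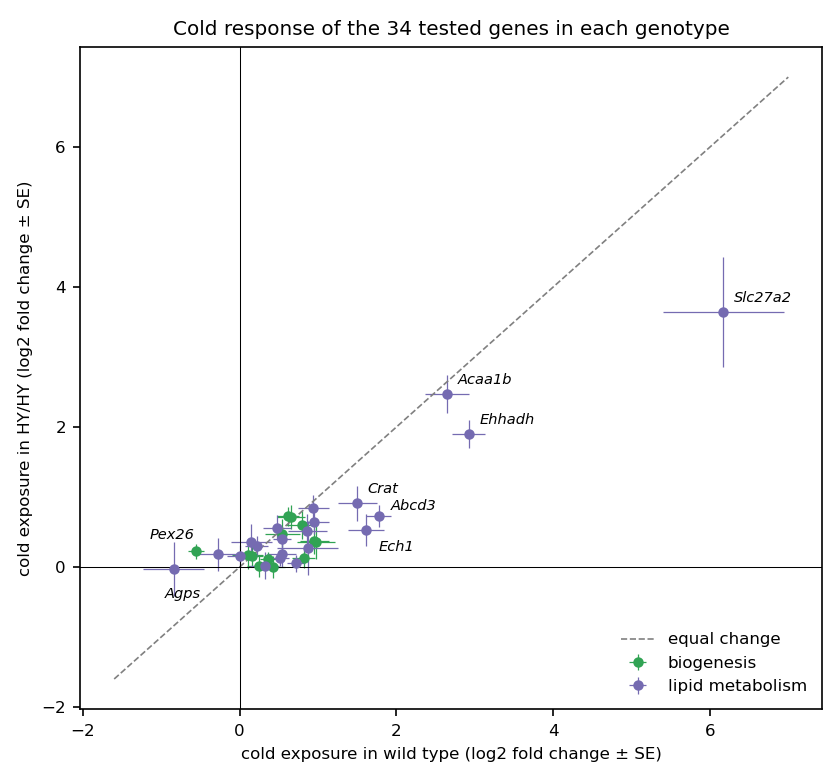
Log2 fold change in the cold (8°C against 30°C) in HY/HY (vertical axis) against that in wild type (horizontal axis) for the 34 genes, with error bars of 1 SE; green, biogenesis; purple, lipid metabolism. Points under the dashed line of equal change had a smaller value in HY/HY, 24 of the 34; Slc27a2, Ehhadh, Abcd3 and Ech1 lie well under it and Acaa1b close to it.

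Further genes of the organelle and of mitochondrial fatty acid oxidation were counted in the same way. Over all genes, 10.3% were called higher in the cold in wild type, 0.181% higher in the cold in HY/HY, and 4.42% lower in HY/HY at 8°C. Of 41 further peroxisomal genes, 36 were tested, and 16 were called higher in the cold in wild type, 1 in HY/HY (Slc25a17), and 5 lower in HY/HY than in wild type at 8°C. The 5 were Ddo (D-aspartate oxidase, log2 -1.10), Mlycd (malonyl-CoA decarboxylase, -1.03), Tysnd1 (the protease that processes β-oxidation enzymes, -1.01), Amacr (the racemase for branched chains, -0.83) and Prdx5 (a peroxiredoxin, -0.61), with adjusted p from 0.0026 to 0.0132. All 18 genes of mitochondrial fatty acid oxidation were tested, and 17 rose in the cold in wild type (median log2 1.98), 1 was called in HY/HY, and 10 were lower in HY/HY at 8°C (median -0.99). Among those 10, Cpt1b, the muscle-type carnitine palmitoyltransferase, gave -2.76 (adjusted p = 0.0123) and Acaa2, the mitochondrial thiolase, -2.03 (adjusted p = 0.000893). The difference between the mitochondrial and peroxisomal sets was not tested. Of the 8 PPAR factors and coactivators, Ppara (-2.13, adjusted p = 0.0181), Ppargc1b (-1.76, adjusted p = 0.00331) and Ppargc1a (-1.33, adjusted p = 0.0346) were called lower in HY/HY at 8°C. The other 5 were not called. Of the 8 values 3 were above 0, 1 of them at an adjusted p under 0.05 but inside the fold limit. A part of these factors in the members' levels was not tested.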

How the data were processed

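Total RNA of scWAT was sequenced on an Illumina instrument as paired reads by the authors, who trimmed reads with fastp and aligned them with STAR to mm10 with GENCODE annotation; the submitters' processing notes also name FastQC and StringTie, and the STAR version is not given in the sources used here. The deposited files are STAR's raw counts of read pairs per gene, 1 file per library, with no normalization, and the column of the sense strand was used. The 4 rows that name no gene took 55.8 to 63.5% of the pairs and stayed out. Pairs mapping to several places are not in the counts. Symbols came from a reference table (32589 IDs matched).

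From the counts, edgeR 4.0.16 (R 4.3.3) was run on all 12 libraries with 4 group means, filterByExpr (16540 genes kept), TMM and the quasi-likelihood test, with Benjamini-Hochberg adjustment over all genes tested. The interaction was called by adjusted p alone. CPM per kilobase used exon lengths from an older annotation. The script was tested on simulated counts. The spread within the 4 groups, estimated jointly over the 12 libraries with 8 residual degrees of freedom, set the precision. Nothing in the labels gives litters or batches, and p-values judge the differences against the spread between these libraries only. An exact permutation test of 3 against 3 cannot go below 0.1. Alternatives were library totals, DESeq2 1.42.0, other filters, both strands, fewer libraries, mitochondrial DNA left out, other thresholds and a replicate block. Deviations of same-numbered libraries from their group means correlated at 0.11, 0.20 and 0.30 between the HY/HY groups. Other groups did not exceed 0.1 in every pair, though replicate 3 of wild type and of HY/HY at 30°C correlated at 0.35. These values do not establish a pairing, so the main fit took no pairs and the replicate block was an alternative only. Per-library values are given for the genes called in the most comparisons (up to 16, ties by the size of the genotype difference at 8°C), for paralog pairs and for the lowest counts; others are given as ranges. The members and the lists were chosen with earlier results of these data known.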

Additional observations from a re-analysis of the deposited data

Results flagged for a closer look

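In 2 genes the cold response differed between genotypes by a test of the difference itself, the interaction term of edgeR's quasi-likelihood fit. For Abcd3 the response in HY/HY was lower than that in wild type by a log2 difference of -1.05 (adjusted p = 0.0364). For Pex26 it was higher by 0.78 (adjusted p = 0.0226), with values of -0.56 in wild type and 0.22 in HY/HY. Neither call was stable: leaving out 1 library lost that of Abcd3 in 10 of 12 fits and that of Pex26 in 7 of 12. The highest adjusted p was 0.113 for Abcd3 and 0.0766 for Pex26. Both interactions use the warm wild-type libraries, which held the most mammary epithelium markers, and their part was not tested.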

How the results depend on the processing

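The count of genes called in either direction in the cold in wild type stayed within 1.5 times of 16 in every alternative, from 11 to 21 without 1 library. In the main fit it was 16 higher and 0 lower. With library totals alone it was 10 and 2, and without wild type 30°C replicate 3 it was 19 and 2. Over all genes the calls were 1707 higher and 1147 lower, 1057 and 4144, and 1869 and 1531 in the same order. No gene called in the main fit changed direction in any alternative. In HY/HY the count of 2 became 9 with DESeq2, 5 with no filter on low counts, 0 with only the libraries of the comparison, 5 at an adjusted p under 0.1, 8 with the replicate block and 1 with the block in the HY/HY libraries alone (chosen after seeing the data), and 2 to 13 without 1 library. The calls over all genes moved with it: from 30 higher and 11 lower to 216 and 94, 101 and 49, 0 and 0, 85 and 36, 128 and 32, and 10 and 1 in the same order, and to 461 and 203 in the fit with 13. Between genotypes at 30°C the count of 0 became 2 with DESeq2, 1 with no filter, 1 by adjusted p alone and 0 to 1 without 1 library, where all genes went from 93 higher and 73 lower calls to 357 and 312 with DESeq2 and 284 and 283 with no filter. At 8°C the count of 7 became 1 to 8 without 1 library, beside 249 higher and 731 lower calls over all genes that became 408 and 832 in the fit with 8. In the fits with 1 they became 79 and 347, 68 and 348, and 43 and 301. The interaction count of 2 became 5 with DESeq2, 4 at an adjusted p under 0.1, 5 with the replicate block and 0 to 3 without 1 library, beside 28 higher and 342 lower calls over all genes that became 95 and 714, 81 and 595, and 57 and 469. The cause was not tested. The block changed no call between genotypes or in the cold in wild type. Of 27 called gene results, 10 were kept in every alternative. Library totals turned the sign of 7 of the 34 genes in the cold in wild type, of which none had been called. Depth limits Acot3 and, at 30°C, Slc27a2.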
